A study of Mus musculus with 5 samples.

Results

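The genes described here are 59 mouse genes for secreted signals of the WNT, FGF, BMP and hedgehog pathways, with 3 BMP antagonists, taken as a fixed list of names out of 22350 protein-coding genes annotated on autosomes or X. They comprise 19 WNT genes, 22 FGF genes, 12 BMP and GDF genes, the 3 hedgehog genes Shh, Ihh and Dhh, and the antagonist genes Nog, Chrd and Grem1. All 59 were found by symbol in the GENCODE vM1 annotation of NCBIM37, the assembly behind mm9. Binding of RING1B, which carries the ubiquitin ligase activity of Polycomb Repressive Complex 1 (PRC1), was measured by ChIP-Seq in mouse embryonic fibroblasts (MEFs) derived from an embryo with floxed EED alleles. The control library came from these parental cells. The EZHIP and H3.3 K27M libraries came from the same cells transduced with lentivirus for human EZHIP or for H3.3 K27M. All 3 lines thus carry the floxed, undeleted EED gene, and the transgenes were driven by the EF1a promoter of the viral vector. EZHIP inhibits PRC2 in a class of ependymomas of the hindbrain, as does the mutant histone H3.3 K27M in midline gliomas. Libraries from cells with H3.3 K27R or with EED deleted were not used here. The control list held 821 peaks with a median width of 3399 bases, the EZHIP list 311 with a median of 1999 bases and the H3.3 K27M list 286 with a median of 5199 bases. The narrowest peak was 1199 bases wide in the control list and 399 bases in each of the other lists, although the study's methods give a minimum of 1000 bases. The lists were thus not alike in their smallest width. The study itself describes RING1B as unchanged in number and general distribution with either transgene, which differs from these peak counts. The reason for this was not tested. Each group had 1 library and no replicate, and the lists give peak positions without reads, so sequencing depth is unknown, no test was possible and every difference is one between these libraries and their peak calls. Peak lists hold no expression, so the fibroblast label was not checked against marker genes.

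PRC1 compacts chromatin and ubiquitylates histone H2A at repressed genes, and its CBX-containing forms bind the H3K27me3 mark left by PRC2. Genes for developmental signals are well known Polycomb targets, because each cell type has to keep most of these ligands silent. WNT proteins bind Frizzled receptors, FGFs bind receptor tyrosine kinases, BMPs and GDFs bind serine/threonine kinase receptors, and hedgehog proteins bind Patched. NOG, CHRD and GREM1 trap BMPs outside the cell. The label of secreted ligands does not hold for Fgf11, Fgf12, Fgf13 and Fgf14, which encode FGF homologous factors that stay inside the cell.

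In control MEFs, 12 of the 59 genes (20.3%) had a RING1B peak over the gene body or within 5000 bases of the start, against 3.81% of all protein-coding genes. With EZHIP, 1 of the 59 (1.69%) had a peak, against 1.32% of all protein-coding genes, and with H3.3 K27M it was likewise 1 (1.69%), against 1.21%. That gene was Fgf9 in both lines, and 11 of the 12 genes with a control peak had a peak in neither. Of all 851 protein-coding genes with a control peak, 530 (62.3%) likewise had a peak in neither. No gene of the 59 had a peak in a transduced line without having one in the control. The other 47 genes had no peak in any list. The 12 control peaks were 12 separate intervals, so no peak was counted for more than 1 gene. Among the 286 widest peaks of each list, a choice that changes both the number of peaks and their smallest width, 2 of the 59 genes (3.39%), Wnt5a and Fgf9, had a control peak, against 1.53% of all protein-coding genes. The control count also fell, to 5, when the gene start itself had to lie inside the peak, and Fgf9 was then no longer counted in any list.

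**Figure D1:**
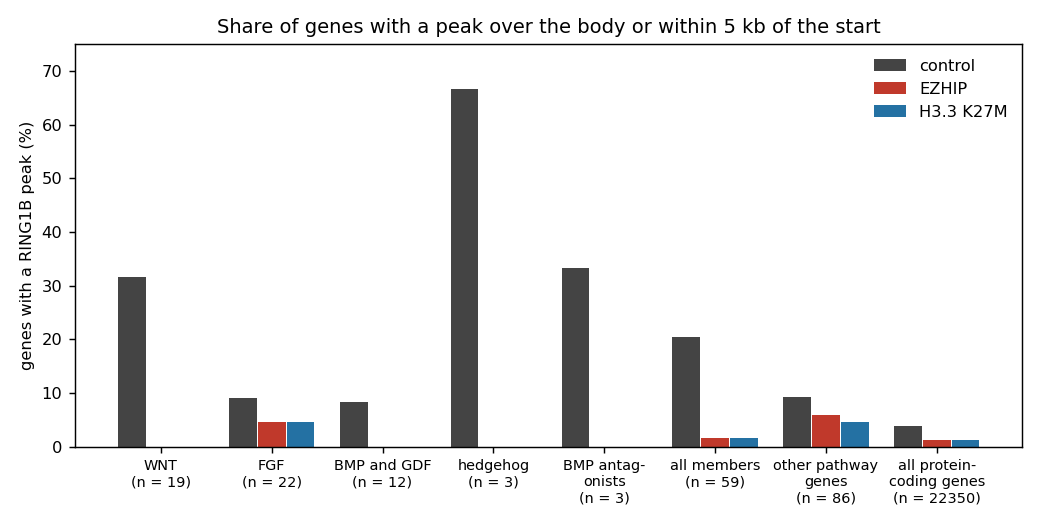
Percentage of genes with a RING1B peak over the gene body or within 5 kb of the start, for each family, for all 59 genes, for 86 other genes of the same pathways (receptors, mediators, antagonists and other ligands) and for all protein-coding genes. Bars show 1 library each for control (grey), EZHIP (red) and H3.3 K27M (blue) and carry no error. Among the 59 genes the control bar stands at 20.3% and both other bars at 1.69%.

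Of the WNT genes, 6 of 19 (31.6%) had a control peak, namely Wnt1, Wnt3a, Wnt5a, Wnt8b, Wnt9a and Wnt10a. Of the FGF genes, Fgf9 and Fgf11 did so, which is 2 of 22 (9.09%). Gdf6 was the only gene with a peak among the 12 BMP and GDF genes (8.33%). Shh and Ihh had a peak among the 3 hedgehog genes, and Nog among the 3 antagonist genes. With 3 genes in each of the last families, their shares of 66.7% and 33.3% rest on very few genes. The differences between families were not tested. Among the 286 widest peaks of each list, or with peaks of at least 5000 bases, 1 WNT gene and 1 FGF gene had a control peak and 0 genes of the other families did, where 1.53% and 1.57% of all protein-coding genes had one.

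The peaks of the WNT genes lay at gene starts, just past them or near the 3′ end of the gene. At Wnt1, a signal that patterns the midbrain and hindbrain, the control peak spanned 4599 bases at chr15:98620001-98624599 and ran from −287 to 4311 bases relative to the start, past the end of the 3981-base gene. Neither the EZHIP nor the H3.3 K27M list had a peak closer to its start than 432.9 and 433.5 kb, respectively. At Wnt3a, needed for the formation of somites, the control peak spanned 3199 bases at chr11:59101601-59104799, included the start and lay for 77.5% of its length in an intron.

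Wnt9a, which acts in developing joints, starts 16.2 kb from Wnt3a and had a control peak of its own, of 2999 bases at chr11:59119401-59122399, again over the start. The closest EZHIP peak lay 352.4 kb from the Wnt9a start and 336.3 kb from the Wnt3a start. At Wnt5a, a ligand of β-catenin-independent WNT signalling in limb and mesenchyme, the control peak was the widest of the family, with 5999 bases at chr14:29318001-29323999. Its edge lay 65 bases inside the gene, which is less than the 200-base bin of the peak lists, and 2 of the 6 annotated transcript starts fell in the peak.

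The remaining WNT peaks were away from the gene start. At Wnt8b, a forebrain signal, the narrowest peak of the family spanned 1999 bases at chr19:44584801-44586799, beginning 16839 bases past the start, with 40.6% of its bases in coding exons. At Wnt10a, which acts in teeth and hair, the peak of 4999 bases at chr1:74849801-74854799 began 11711 bases past the start and lay for 80.9% of its length beyond the 3′ end of the gene. Both genes also had a low observed to expected CpG ratio around the start, of 0.326 and 0.394. Of their neighbours, Wnt10b (11.7 kb from Wnt1) and Wnt6 (19.6 kb from Wnt10a) had no peak in their windows, although a control peak lay 11.4 and 31.3 kb from their starts.

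**Figure D2:**
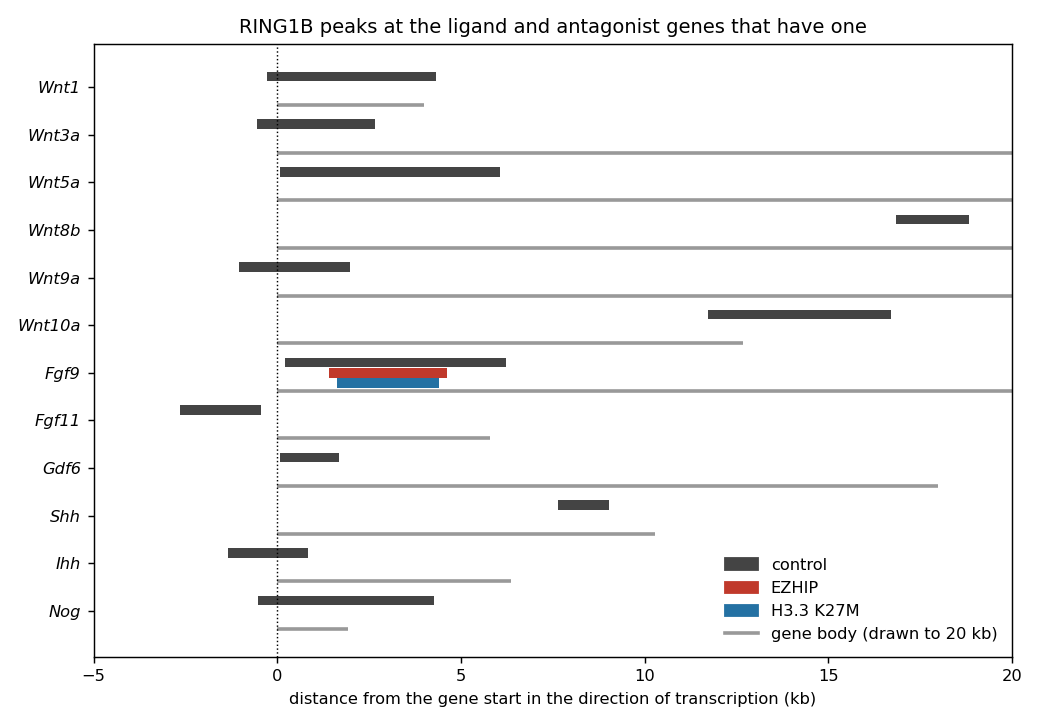
Position of each RING1B peak relative to the annotated gene start, in kb in the direction of transcription, for the 12 genes with a peak. Bars are peaks of the control (grey), EZHIP (red) and H3.3 K27M (blue) lists, and the thin line is the gene body, drawn to 20 kb. Only Fgf9 shows red and blue bars, of 3199 and 2799 bases inside the control peak of 5999 bases.

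Fgf9, a ligand from epithelia and mesothelia that acts on mesenchyme in lung and gonad, was the gene that kept RING1B peaks in both transduced lines. The control peak covered 5999 bases at chr14:58689601-58695599, the EZHIP peak 3199 bases at chr14:58690801-58693999 and the H3.3 K27M peak 2799 bases at chr14:58691001-58693799. The EZHIP peak was 0.533 times and the H3.3 K27M peak 0.467 times as wide as that of the control, and the H3.3 K27M peak lay wholly inside the EZHIP peak. Across all protein-coding genes with a peak in both lists, the median of this width ratio was 0.417 for EZHIP (249 genes) and 0.647 for H3.3 K27M (243 genes). The EZHIP ratio at Fgf9 lay between the quartiles of 0.186 and 0.733 over these genes, and the H3.3 K27M ratio between 0.373 and 0.819.

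Neither narrower peak reached the annotated 5′ end of Fgf9, from which they began 1417 and 1617 bases downstream. They did include the start of another annotated Fgf9 transcript, at position 58691523, which lies 2139 bases inside the gene record. Of the 4 annotated transcript starts, 3 lay in the control peak, 2 in the EZHIP peak and 1 in the H3.3 K27M peak. The narrower peaks held coding exon sequence over 8.66% (EZHIP) and 9.90% (H3.3 K27M) of their length and intron over 78.3% and 76.9%.

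The part of the control peak that stayed in both lines was not the part with the most CpGs per base. CpG-island-like sequence, defined by base composition in windows of 500 bases, made up 32.1% of the 2799 bases shared by all 3 lists. It made up 75% of the 1200 control bases before the narrower peaks and 100% of the 1600 bases after them. CpGs numbered 48.2 per kb in the shared part, 52.5 per kb before it and 66.9 per kb after it. Relative to the number expected from base composition the order was different, with ratios of 0.714, 0.606 and 0.670.

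Sequences of Fgf9 are given 5′ to 3′ on the plus strand of mm9, with every CpG in capitals, to show the base composition of the bound stretch. The first runs from 270 bases before to 30 bases into the transcript that starts inside all 3 peaks (chr14:58691253-58691552). The second holds the middle 300 bases of the stretch in all 3 lists (chr14:58692251-58692550), which is intronic in every annotated transcript.
Fgf9 transcript start: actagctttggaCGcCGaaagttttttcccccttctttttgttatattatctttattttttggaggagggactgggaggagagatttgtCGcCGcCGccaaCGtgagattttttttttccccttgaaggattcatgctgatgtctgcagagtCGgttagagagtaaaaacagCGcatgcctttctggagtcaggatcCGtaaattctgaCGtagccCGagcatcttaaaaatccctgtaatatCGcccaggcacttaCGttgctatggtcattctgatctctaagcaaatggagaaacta
Fgf9 peak centre: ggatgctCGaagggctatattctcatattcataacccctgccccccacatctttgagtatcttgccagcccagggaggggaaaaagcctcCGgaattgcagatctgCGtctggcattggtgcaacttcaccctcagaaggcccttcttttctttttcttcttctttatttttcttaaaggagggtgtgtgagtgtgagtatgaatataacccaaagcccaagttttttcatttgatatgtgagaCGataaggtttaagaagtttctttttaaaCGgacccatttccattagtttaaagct

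The transcript start held 13 CpGs in its 300 bases at an observed to expected ratio of 0.897, and the peak centre held 5 at a ratio of 0.372. In windows of the same length and placing at all 22350 protein-coding starts, the median was 11 CpGs, and 45.9% held 13 or more.

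The other FGF gene with a control peak was Fgf11, one of the intracellular factors. Its peak of 2199 bases at chr11:69615801-69617999 lay entirely upstream, ending 442 bases before the start and overlapping the 3′ end of the neighbouring Tmem102. The closest EZHIP peak was 132.8 kb away, and no H3.3 K27M peak lay closer than 14050642 bases. The remaining 20 FGF genes had no peak. They include the paracrine ligand genes Fgf8 and Fgf10, the endocrine ligand genes Fgf15, Fgf21 and Fgf23, and the neighbouring Fgf3, Fgf4 and Fgf15, which start within 58.4 kb of each other.

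Among BMP and GDF genes, Gdf6, which takes part in joint and skull formation, had a control peak of 1599 bases at chr4:9771601-9773199. It began 82 bases inside the gene, again less than a bin from the start, and lay for 72.5% of its length in an intron. The peak was absent from both transduced lists, and the closest peak was 1150520 bases from the start with EZHIP and 1538682 bases with H3.3 K27M. Bmp2, Bmp3, Bmp4, Bmp5, Bmp6, Bmp7, Bmp8a, Gdf5, Gdf7, Gdf10 and Gdf11 had no peak in any list.

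Of the hedgehog genes, Ihh, which paces cartilage growth, had a control peak of 2199 bases at chr1:74997401-74999599 over its start, with 61.5% of the peak upstream of the gene. Shh, the organizer of neural tube and limb patterning, had the narrowest peak of the 12, with 1399 bases at chr5:28784601-28785999. The Shh peak began 7642 bases past the start, inside the gene, and held the start of the non-coding gene 9530036O11Rik on the other strand. Neither peak had a counterpart in the transduced lines. The closest EZHIP peak lay 10079 kb and the closest H3.3 K27M peak 66.8 kb from the Ihh start. For Shh these distances were 295.6 and 254.4 kb. Dhh, expressed in testis and peripheral nerve, had no peak.

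Nog, for the BMP antagonist noggin, had a control peak of 4799 bases at chr11:89159601-89164399, which covered the whole gene and the start of the processed-transcript gene Gm2018 on the other strand. The closest EZHIP and H3.3 K27M peaks were 331.7 and 331.9 kb away. Chrd and Grem1 had no peak in any list.

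Taking the 12 control peaks as a group, they were of modest width, from 1399 to 5999 bases with a median of 3099 bases. The median over the 851 protein-coding genes with a control peak was 3799 bases, with an upper quartile of 10399 bases. The gene start lay inside the peak at 5 of the 12 genes, Wnt1, Wnt3a, Wnt9a, Ihh and Nog, which is 8.47% of the 59 genes against 2.82% of all protein-coding genes. At 4 more, Wnt5a, Fgf9, Fgf11 and Gdf6, the edge of the peak was within 500 bases of the start, and at Wnt8b, Wnt10a and Shh it was farther. No start of the 59 gene records lay in an EZHIP or H3.3 K27M peak, against 0.595% and 0.743% of all protein-coding starts.

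The share of genes that kept a peak has to be read against this width. Of all protein-coding genes with a control peak, 29.3% also had an EZHIP peak and 28.6% an H3.3 K27M peak, against 1 of 12 (8.33%) for each line here. The shares over protein-coding genes count genes, so neighbours that share a peak are each counted, whereas the 12 genes had separate peaks. Genes with wide control peaks made up much of these shares. Where the widest control peak spanned 10000 bases or more, 67.4% of 221 genes had an EZHIP peak and 71.9% an H3.3 K27M peak, and none of the 59 genes fell in this class. Of the 495 protein-coding genes whose widest control peak was in the range of the 12 genes, 13.5% had an EZHIP peak, 9.70% an H3.3 K27M peak and 80.8% neither. Here the genes with neither were 11 of 12 (91.7%), and the difference from that share was not tested.

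**Figure D3:**
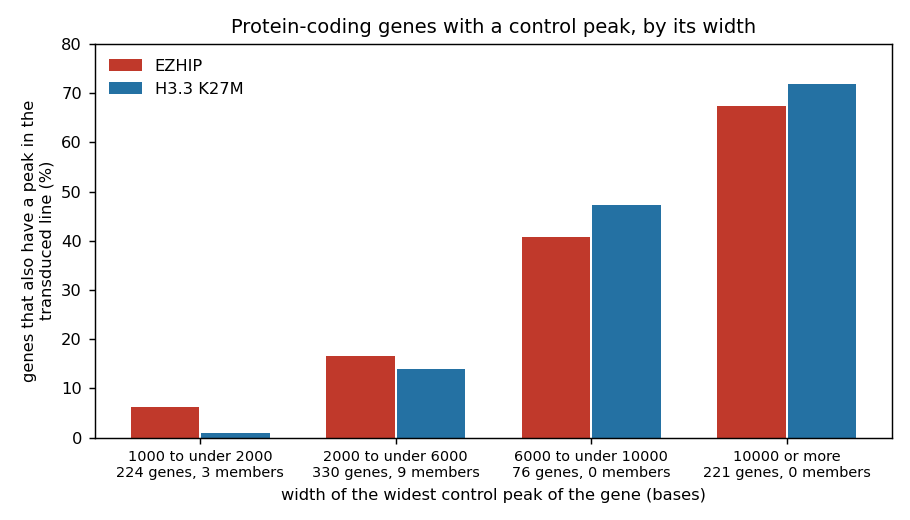
Percentage of protein-coding genes with a control peak that also had a peak with EZHIP (red) or H3.3 K27M (blue), by the width of the widest control peak of the gene in bases. Numbers under the bars give the genes in each class and how many of them belong to the 59. The members fall only in the lower classes, 3 under 2000 bases and 9 from 2000 to under 6000 bases, where no bar exceeds 16.7%.

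The sequence at the gene start was a measure the choice of genes did not use. CpG-island-like sequence lay within 500 bases of the start at 10 of the 12 genes with a control peak (83.3%) and at 33 of the 47 genes without (70.2%). Over protein-coding genes, the shares were 83.5% with and 51.3% without a control peak. The observed to expected CpG ratio over 500 bases on either side of the start had a median of 0.617 over the 12 genes and 0.671 over the 47, and the ranges overlapped almost entirely, with 0.326 to 0.997 and 0.175 to 1.08. The 2 genes with a control peak and no island-like sequence at the start were Wnt8b and Wnt10a. Each of the 12 control peaks themselves held island-like sequence, over a median of 59.6% of their length, compared with 38.9% over all 821 control peaks, of which 91.2% held any.

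**Figure D4:**
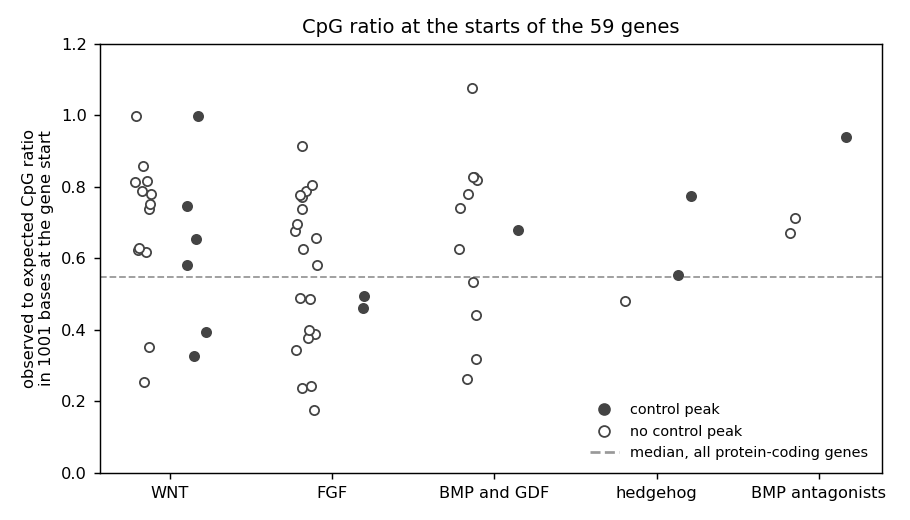
Observed to expected CpG ratio over 500 bases on either side of the gene start, for each of the 59 genes by family. Filled points are genes with a control peak, open points are genes without, horizontal scatter within a family has no meaning, and the dashed line is the median of all protein-coding genes (0.549). Filled points lie within the spread of the open points in the WNT and FGF families.

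Further promoters are shown to let these compositions be compared, each with 270 bases before and 30 bases after the annotated start, in the direction of transcription, CpGs in capitals, all on mm9. Wnt5a (chr14:29317666-29317965, plus strand), Fgf9 (chr14:58689114-58689413, plus strand), Gdf6 (chr4:9771249-9771548, plus strand) and Ihh (chr1:74998217-74998516, minus strand) had control peaks. Wnt2 (chr6:17980556-17980855, minus strand) and Fgf2 (chr3:37211171-37211470, plus strand) had no peak in any list.
Wnt5a: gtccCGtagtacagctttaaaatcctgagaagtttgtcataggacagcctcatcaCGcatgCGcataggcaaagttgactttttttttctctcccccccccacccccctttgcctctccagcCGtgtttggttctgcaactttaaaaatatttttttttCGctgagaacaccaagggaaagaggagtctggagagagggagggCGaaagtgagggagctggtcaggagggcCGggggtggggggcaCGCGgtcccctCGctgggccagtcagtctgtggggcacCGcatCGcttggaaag
Fgf9: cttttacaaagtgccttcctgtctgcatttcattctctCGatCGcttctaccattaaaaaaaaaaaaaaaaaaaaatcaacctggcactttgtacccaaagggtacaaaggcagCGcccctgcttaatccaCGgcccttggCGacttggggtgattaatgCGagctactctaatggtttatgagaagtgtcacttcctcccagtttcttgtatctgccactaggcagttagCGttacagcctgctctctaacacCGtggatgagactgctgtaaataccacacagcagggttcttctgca
Gdf6: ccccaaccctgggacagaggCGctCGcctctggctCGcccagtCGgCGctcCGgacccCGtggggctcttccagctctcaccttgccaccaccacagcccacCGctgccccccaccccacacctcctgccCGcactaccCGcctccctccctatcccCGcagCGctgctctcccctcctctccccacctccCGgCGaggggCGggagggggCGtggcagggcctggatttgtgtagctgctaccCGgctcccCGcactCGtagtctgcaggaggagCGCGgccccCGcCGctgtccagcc
Ihh: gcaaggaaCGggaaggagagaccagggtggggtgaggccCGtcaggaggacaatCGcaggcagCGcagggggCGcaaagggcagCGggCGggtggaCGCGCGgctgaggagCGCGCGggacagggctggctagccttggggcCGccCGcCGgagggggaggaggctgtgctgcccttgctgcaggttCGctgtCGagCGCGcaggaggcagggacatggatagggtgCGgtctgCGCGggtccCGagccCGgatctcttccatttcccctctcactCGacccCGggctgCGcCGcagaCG
Wnt2: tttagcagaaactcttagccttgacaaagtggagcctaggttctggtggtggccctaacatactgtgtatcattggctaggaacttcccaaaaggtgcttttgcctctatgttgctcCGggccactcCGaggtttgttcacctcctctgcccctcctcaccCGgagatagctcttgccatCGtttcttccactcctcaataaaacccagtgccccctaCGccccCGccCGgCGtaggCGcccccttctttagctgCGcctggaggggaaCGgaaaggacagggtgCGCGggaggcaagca
Fgf2: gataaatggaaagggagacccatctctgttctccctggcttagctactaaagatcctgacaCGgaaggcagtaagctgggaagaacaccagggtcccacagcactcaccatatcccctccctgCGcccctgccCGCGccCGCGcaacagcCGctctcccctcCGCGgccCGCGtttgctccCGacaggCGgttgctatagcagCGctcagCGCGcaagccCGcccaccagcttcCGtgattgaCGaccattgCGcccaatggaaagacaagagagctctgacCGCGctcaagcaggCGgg

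CpGs numbered 12 at Wnt5a, 8 at Fgf9, 23 at Gdf6 and 30 at Ihh, and 13 at Wnt2 and 23 at Fgf2. Fgf1, ahead of Fgf2 in the list and also without a peak, held 4 and is not shown, so the promoters shown do not represent the genes without a peak. The Ihh promoter was the richest shown, and 12.1% of all protein-coding promoters of this length held as many. Of the promoters shown, that at the annotated 5′ end of Fgf9 held the fewest, but Fgf11, Shh, Wnt10a and Wnt8b, whose control peaks had no counterpart in the transduced lines, held fewer still in the same window, with 2, 3, 4 and 6.

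In addition, 86 other genes of the same pathways were examined, comprising receptors, mediators, antagonists and ligands not among the 59. Of these, 8 (9.30%) had a control peak, 5 (5.81%) an EZHIP peak and 4 (4.65%) an H3.3 K27M peak, against 3.81%, 1.32% and 1.21% of all protein-coding genes. With the start inside the peak, 6 of the 86 had a control peak, 2 of the 86 an EZHIP peak and 1 of the 86 an H3.3 K27M peak. The shares of all protein-coding genes were then 2.82%, 0.595% and 0.743%. With peaks of at least 1000 bases the EZHIP count was 3 of the 86, against 0.935%, and among the 286 widest peaks of each list the control count was 3 (3.49%), against 1.53%. The group comprised 1 of 15 WNT receptor genes with a control peak, 2 of 11 WNT antagonist genes, 1 of 5 FGF receptor genes, 1 of 6 BMP receptor genes, 1 of 10 hedgehog receptor and mediator genes, 2 of 24 intracellular mediator genes and 0 of 15 other ligand and antagonist genes.

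Lef1, the transcription factor that partners β-catenin, had peaks in all lists, of 6799 bases in the control, 1399 bases with EZHIP and 4799 bases with H3.3 K27M. The WNT receptor gene Fzd3 had a control peak of 1599 bases and an EZHIP peak of 399 bases over its start and no H3.3 K27M peak. Wif1, for a secreted WNT inhibitor, had a control peak of 4199 bases and an EZHIP peak of 4799 bases, and no H3.3 K27M peak. Sost, for the WNT inhibitor sclerostin, was without an EZHIP peak and had peaks of 2199 bases in the control and 999 bases with H3.3 K27M.

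Smo, which transduces the hedgehog signal, had no control peak but had peaks in both transduced lines, 999 bases wide with EZHIP and 1199 bases wide with H3.3 K27M, each beginning 12107 bases past the start. No peak in the control list was narrower than 1199 bases, so this is not read as a gain of binding. Fgfr2 was counted in all lists because its record in this annotation spans 3.01 Mb, against 104.4 kb in RefSeq (GRCm38.p6), and the peaks touched 1 of its 29 annotated transcripts. The other 28 lay at least 1273679 bases from any of the peaks, which were thus outside Fgfr2 as those transcripts define it. The control peaks of 17999 and 1799 bases began 1613034 and 524034 bases from the recorded start, and the EZHIP and H3.3 K27M peaks, of 11999 and 15799 bases, began 1615034 and 1614034 bases from it. Without Fgfr2 each of the 3 counts falls by 1. Acvr2b, Axin2 and Ptch1, named here after their values were seen, had a control peak alone. The Ptch1 peak spanned 10999 bases, wider than any at the 59 genes, and Ptch1 encodes the hedgehog receptor.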

How the data were processed

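RING1B ChIP-Seq was carried out by the authors in MEFs after crosslinking, MNase digestion and immunoprecipitation. Per the labels and the study's methods, the authors aligned reads to mm9 with bowtie (1.0.0) and used MOSAiCS-HMM for broad peaks, 1 list per library. Each deposited list gives chromosome, start and end, and no count, signal or p-value. Depth, and with it the precision of each call, is therefore unknown. Groups were taken from the cell type in the labels.

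Widths are end minus start, and printed positions are 1-based. A gene was assigned every peak sharing at least 1 base with its body or the 5000 bases on either side of its start (GENCODE vM1), and the same was done for all protein-coding genes. Each of the 59 symbols had 1 record. CpG-island-like sequence means merged 500-base windows, moved by 100 bases, with G and C at 55% or more and CpGs at 0.65 or more of the expected number. With 1 library per group, no test was run. Sequences were read from the NCBIM37 genome. The overlap and island code was tested on simulated data. Python 3.11.15 and numpy 2.4.6 were used, and matplotlib 3.10.9 for plots.

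The genes, the pathway lists and the rules were chosen with earlier results of these data known. All genes with a peak were to be named, and other pathway genes where a transduced line had a peak. Promoters shown were those of the WNT, FGF, BMP and GDF, and hedgehog genes with the widest control peak (or, where there were any, with peaks in all lists) and of the first WNT and FGF genes in list order without a peak, which were Wnt2 and, since the sequence of Fgf1 was not to be printed by the same rule, Fgf2. The Fgf9 transcript start and peak centre were added after the peaks were seen. Alternatives varied the window, the transcript starts, the minimum width, the number of peaks, merging, the definition of a kept gene, the width measure, the background genes and the island definition.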

Additional observations from a re-analysis of the deposited data

How the results depend on the processing

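Of the values recomputed under each alternative, 102 stayed within 1.5 times of the reported value (or, for shares with island-like sequence, within its 95% Wilson interval) and 47 moved outside. The window, width and merging settings were planned, and the start of any transcript inside the peak was added after seeing the data. No replicate could be left out, since each group is 1 library, and no paired analysis was possible because the labels give no replicate numbers. Windows of 10000 bases, any transcript start within 5000 bases, peaks within 10000 bases merged and a shared base between peaks moved none of the values they were run for, and neither did the other width measures or all annotated genes as background. The other width measures could not differ, because the ratio rested on Fgf9 alone, with 1 peak per list inside its window. A minimum of 1000 bases could not change a control count, since no control peak was narrower than 1199 bases. Such values are among the 102 and say nothing about robustness.

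With only the gene start inside the peak, genes with a control peak numbered 5 (WNT 3, FGF 0, BMP and GDF 0, hedgehog 1), those with an EZHIP or H3.3 K27M peak 0 each, and so did those kept in either line, while the other pathway genes numbered 2 with EZHIP and 1 with H3.3 K27M. Within 1000 bases of the start, 0 genes had or kept an EZHIP or H3.3 K27M peak, 1 hedgehog gene had a control peak, and of the other pathway genes 3 had a peak with EZHIP and 1 with H3.3 K27M. Within 5000 bases without the gene body, these were 1 hedgehog gene and 3 and 2 other pathway genes. The first 2 windows lose Fgf9 in the transduced lines because its peaks there begin 1417 and 1617 bases past the start. When the start of any transcript inside the peak sufficed, 1 gene, Fgf9, was counted with EZHIP and 1 with H3.3 K27M, and 7 in the control. No share of all protein-coding genes is given for this setting, the 1000-base window or the 5000-base window without the body. The counts under these settings are therefore not read as above or below the background.

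With peaks of at least 1000 bases, 3 other pathway genes had an EZHIP peak. With the 286 widest peaks of each list, 2 genes, Wnt5a and Fgf9, had a control peak (WNT 1, FGF 1, BMP and GDF 0, hedgehog 0, antagonists 0), 0 starts lay in one, and 3 other pathway genes had one. Fgf9 then still had its EZHIP and H3.3 K27M peaks. With peaks of at least 5000 bases, the control counts were the same as with the widest peaks (2 in all, WNT 1, FGF 1, BMP and GDF 0, hedgehog 0, antagonists 0, starts 0, other pathway genes 3), 0 genes had or kept an EZHIP or H3.3 K27M peak, and 1 other pathway gene had one in each line. With the looser island definition (200-base windows, G and C of at least 50%, ratio of at least 0.6), 83.0% of the 47 ligand and antagonist genes without a control peak had island-like sequence at the start. Of the 12 with a control peak, 91.7% did. Over protein-coding genes, the looser shares were 61.0% without and 90.1% with a control peak.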

Other observations

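Several of the 47 ligand and antagonist genes without a control peak had one outside their windows. The closest was 11.4 kb from the start of Wnt10b, beside Wnt1, followed by Wnt6 at 31.3 kb, Fgf18, Fgf5, Fgf23 and Wnt9b at 98.1 kb. Fgf18, a bone and lung mesenchyme ligand, had the closest peak 46.6 kb from its start in the control, 51.8 kb with EZHIP and 46.2 kb with H3.3 K27M. Fgf5, a regulator of hair growth, had the closest peak at 64.4 kb in the control, 70.0 kb with EZHIP and 68.6 kb with H3.3 K27M. Fgf23, the phosphate-regulating hormone gene, had it at 75.7, 82.1 and 82.9 kb in the same order. Fgf8, a signal of the midbrain and limb bud, had EZHIP and H3.3 K27M peaks 92.6 kb from its start, whereas the closest control peak lay 405.0 kb away. Whether these distant peaks concern the ligand genes was not tested.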
